A study of Mus musculus with 6 samples.

Results

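A set of 10 genes that regulate mitochondrial and fatty acid metabolism were followed in the hearts of mice with an activated human SRY transgene. They were the coactivator genes Ppargc1a and Ppargc1b, the PPAR receptor genes Ppara, Ppard and Pparg, the estrogen-related receptor (ERR) genes Esrra, Esrrb and Esrrg, and the genes Tfam and Nrf1. A probe was taken as theirs when the gene symbol of its array entry equalled one of these names. This gave 13 probes of 10 genes among 25697 probes of 18138 genes. The hearts came from male mice at postnatal day 6, of the strain labelled FVB and given as FVB/N in the methods, 3 labelled hSRY-ON and 3 labelled hSRY-OFF, with 1 array for each heart. In the hSRY-ON mice, human SRY was switched on in the one-cell embryo by Cre protein that Ddx4-Cre mothers left in the oocyte, and the pups chosen for the arrays did not themselves carry Ddx4-Cre. The transgene was a single copy driven by the broadly active CAG promoter, which also drove EGFP from the same transcript once activated, so the comparison does not single out the heart muscle cell. The methods describe hSRY-OFF mice as carrying the transgene in its unrecombined state, in which DsRed2 is made, whereas the study also describes control littermates with Ddx4-Cre alone or with no transgene. Which of these the hSRY-OFF hearts were could not be settled. The study describes biological triplicates, and each value below is from a single heart. The level of human SRY was not measured on these arrays. The study reports that hSRY-ON pups suckled little, lacked stomach milk at necropsy and grew more slowly than littermate controls. Feeding and growth thus differed along with the genotype, and their part in the changes below was not tested.

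PGC-1α and PGC-1β, the products of Ppargc1a and Ppargc1b, do not bind DNA themselves but raise the activity of nuclear receptors and of the factor NRF1. The PPARs act as pairs with the RXR receptors on genes of fatty acid uptake, storage and oxidation, and the ERRs act on genes of oxidative phosphorylation, the tricarboxylic acid cycle and energy transfer. NRF1 acts on nuclear genes of the respiratory chain. TFAM, encoded by a nuclear gene and imported into mitochondria, packages mitochondrial DNA and starts its transcription. In the heart this network is known for the rise of fatty acid oxidation after birth.

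Tests were run on the 12970 probes, of 9660 genes, that stood above background (detection p-value under 0.05) in 3 or more of the 6 hearts. On any one array 47.2% to 51.3% of all probes did so. Levels are background-corrected, quantile-normalized intensities on the log2 scale, and a change is hSRY-ON minus hSRY-OFF. Changes were tested with limma, and a gene was called at an adjusted p-value under 0.05 over all tested probes. A gene with several tested probes was counted by the brightest. Genes of the heart muscle cell, including Myh6 and Tnni3, were above background in both groups, as 8 of 8 measured markers were. Over probes, hearts correlated at 0.983 to 0.992 within a group and at 0.940 to 0.960 across groups. The values of a gene are comparable between hearts but not between genes, because each probe has its own brightness.

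Of the 8 regulators that could be tested, 4 fell in the hSRY-ON hearts and none rose by limma, also at an unadjusted p-value under 0.05. Ppargc1b, Esrra, Ppara and Tfam were the 4 that fell, and Ppargc1a, Pparg, Esrrb and Nrf1 did not pass the test. Ppard and Esrrg were above background on no array. Ppara entered the tested set only through the hSRY-OFF hearts, in which it was above background, so its call had little room to be otherwise and gives no support to the count. Of the 7 regulators above background on all 6 arrays, 3 fell (Ppargc1b, Esrra and Tfam), with a median change of -0.63. Counted by probe and in either direction, 30.3% of all 11035 probes were called under that filter, 1710 as lower and 1634 as higher. Over all 9660 tested genes 28.8% were called, 13.9% as lower and 14.9% as higher in hSRY-ON. By probe, 5 of the 9 tested probes of the regulators were called, against 27.5% of all probes. The groups of hearts did not overlap for 4 of the 8 regulators, all of them lower in hSRY-ON. Ppara is among these 4 and among the 5 called probes, and gives no support to either count. Over all tested genes 46.8% did not overlap, and 22.0% had every hSRY-ON heart below every hSRY-OFF heart. The median change of the 8 regulators was -0.68, or -0.54 with Ppara set at its lower bound, and that of all tested genes was 0, with the middle of the distribution between -0.31 and 0.30. The calls over all probes were 50.1% higher ones, which became 38.5% with no normalization between arrays and 65.7% with scaling to the array median. The 4 calls, that of Ppara among them, were all lower, with none higher, under each of these scalings.

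**Figure D1:**
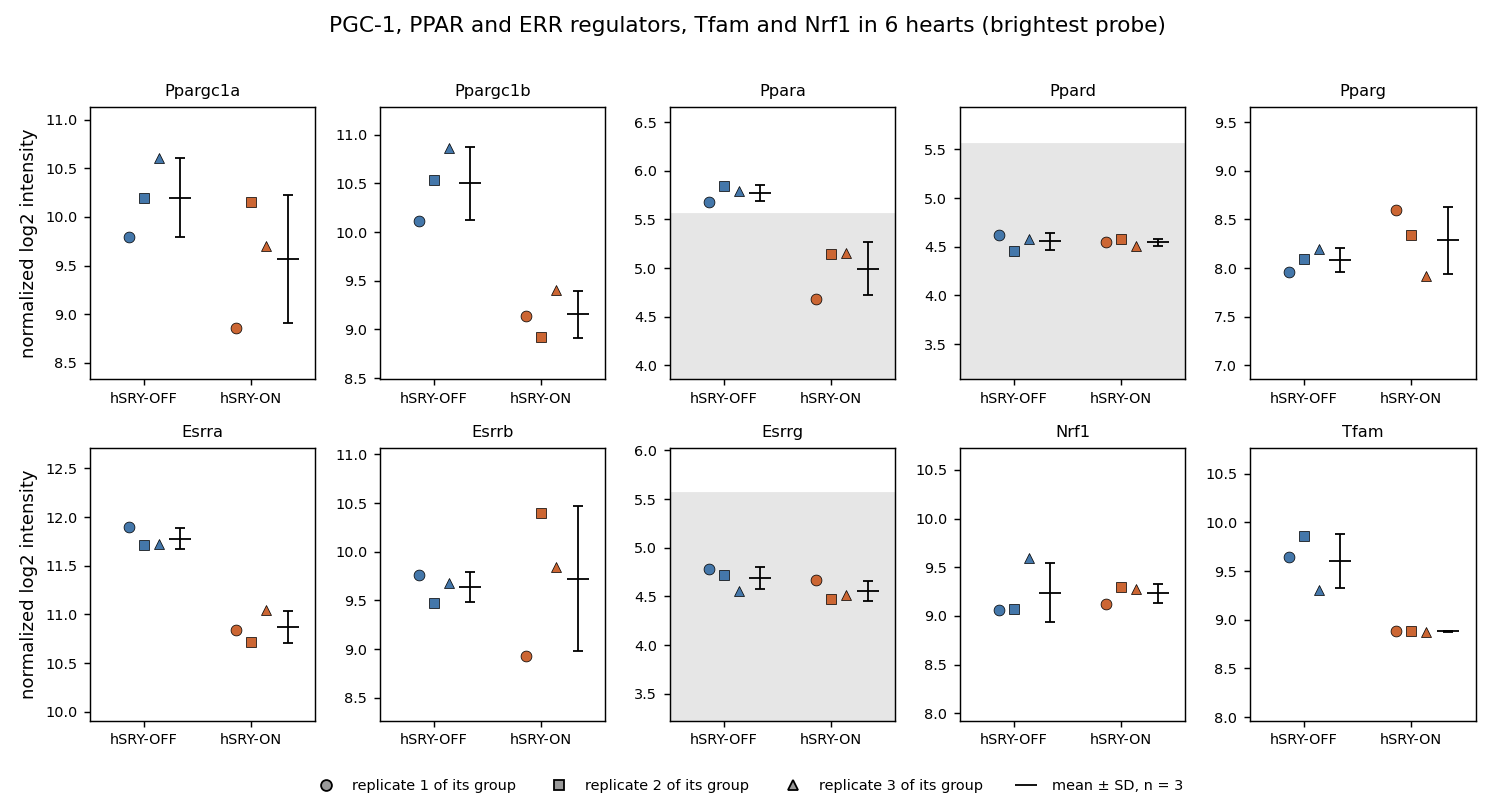
Normalized log2 intensity of the brightest probe of each of the 10 genes in the 3 hSRY-OFF (blue) and 3 hSRY-ON (orange) hearts, with the mean ± SD of each group beside the points. Each panel spans the same number of log2 units, and grey marks signals up to 5.56, the highest among the 6 arrays of the dimmest signal that was above background. The hSRY-ON points lie below all hSRY-OFF points for Ppargc1b, Ppara, Esrra and Tfam, while the groups overlap for Ppargc1a, Pparg, Esrrb and Nrf1.

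The promoter sequences of Tfam, Ppara and Esrra are shown because these genes moved the same way. That of Ppargc1b, which did so too, is not shown here. They are the 250 bases before the RefSeq transcription start, in GRCm38.p6, written 5′ to 3′ on the strand of the gene, with capitals for the letters found by a motif search. Tfam and Esrra lie on the minus strand and Ppara on the plus strand.
Tfam, chr10:71238045-71238294: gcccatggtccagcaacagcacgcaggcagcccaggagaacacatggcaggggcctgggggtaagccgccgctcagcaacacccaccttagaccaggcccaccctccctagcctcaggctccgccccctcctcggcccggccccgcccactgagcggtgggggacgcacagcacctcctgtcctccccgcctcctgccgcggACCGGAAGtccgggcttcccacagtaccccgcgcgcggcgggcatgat
Ppara, chr15:85735526-85735775: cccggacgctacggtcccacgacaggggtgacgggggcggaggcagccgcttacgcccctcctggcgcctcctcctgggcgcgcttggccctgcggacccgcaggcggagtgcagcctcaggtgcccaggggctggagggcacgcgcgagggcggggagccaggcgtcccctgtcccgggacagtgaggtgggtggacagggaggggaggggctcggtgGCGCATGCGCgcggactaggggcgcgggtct
Esrra, chr19:6921809-6922058: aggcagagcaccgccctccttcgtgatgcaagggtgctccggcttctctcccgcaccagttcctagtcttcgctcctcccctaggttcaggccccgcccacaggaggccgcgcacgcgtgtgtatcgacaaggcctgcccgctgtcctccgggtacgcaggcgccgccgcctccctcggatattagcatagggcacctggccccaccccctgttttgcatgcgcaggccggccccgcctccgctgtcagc
The capitals in the Tfam sequence are ACCGGAAG, letters that GABP is known to bind, 48 to 41 bases before the start. Those in the Ppara sequence are GCGCA and GCGC with 1 free base between them, the letters of an NRF1 site, 31 to 22 bases before the start. The 3 sequences are rich in G and C, at 72.0%, 76.4% and 68.4% for Tfam, Ppara and Esrra. Both strands were searched in windows that also held the first 50 bases of the transcript, with 16 windows of 9 of the 10 genes and 32851 windows in all. ACCGGAAG was in 2.30% of all windows and the NRF1 letters in 4.60%. The SRY and SOX box AACAAAG was in 5.85% of all windows and, among the regulators, in 1 window of Nrf1, on the reverse strand 35 to 29 bases before the start. Neither the ERR letters TCAAGGTCA (0.423% of all windows) nor the PPAR letters, AGGTCA repeated after 1 free base (0.0396%), were in any of the 16 windows. These are matches of letters and carry no measurement of binding.

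The 2 PGC-1 genes were both lower on average in hSRY-ON, but only Ppargc1b passed the test. Ppargc1b measured 10.11, 10.53 and 10.86 in the hSRY-OFF hearts and 9.14, 8.92 and 9.40 in the hSRY-ON hearts. All hSRY-ON hearts lay below all hSRY-OFF hearts. The change was -1.35 (SE 0.21, n = 3 each), or 2.54-fold lower in hSRY-ON, with a limma adjusted p of 0.00365. Only 4.92% of all tested genes had a larger change in either direction. In the 6 fits that each left out 1 heart, the change lay between -1.55 and -1.16 and was past the threshold every time.

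Ppargc1a, the coactivator known for its response to exercise, cold and fasting, measured 9.79, 10.20 and 10.61 in hSRY-OFF and 8.86, 10.15 and 9.70 in hSRY-ON. hSRY-ON replicate 2 lay inside the hSRY-OFF range and replicates 1 and 3 lay below it. The change was -0.63 (SE 0.34, 95% confidence interval -1.42 to 0.16), with a limma adjusted p of 0.209. It was -0.27 without hSRY-ON replicate 1 and -0.92 without hSRY-ON replicate 2, and in neither case past the threshold. The interval includes both no change and a fall as large as that of Ppargc1b.

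Among the PPAR genes, Ppara fell, Pparg did not pass the test and Ppard had no signal above background. PPARα is the form known to drive fatty acid oxidation in heart and liver. Ppara measured 5.68, 5.84 and 5.79 in hSRY-OFF and 4.68, 5.14 and 5.16 in hSRY-ON. It was dim, above background on all hSRY-OFF arrays and on none of the hSRY-ON arrays, so its level in hSRY-ON is only an upper limit, and it was tested only because it was higher in hSRY-OFF. Against the dimmest signal above background on each hSRY-ON array, Ppara was at least 1.36-fold lower in hSRY-ON, a bound that holds for the background-corrected intensities with an offset of 16 only. The limma change was -0.78 (SE 0.16) with an adjusted p of 0.0104. The change was -0.42 with an offset of 50. Without background correction it was -0.23 and no longer past the threshold (limma adjusted p 0.0637). When an hSRY-OFF heart was left out, too few arrays detected Ppara for it to be tested.

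Pparg, the PPAR of fat cells and of macrophages, measured 7.96, 8.09 and 8.20 in hSRY-OFF and 8.60, 8.34 and 7.92 in hSRY-ON by its brightest probe. The groups overlapped because hSRY-ON replicate 3 was the lowest of the 6 hearts, while hSRY-ON replicates 1 and 2 were the 2 highest. The change was 0.20 (SE 0.18, 95% confidence interval -0.23 to 0.63), with a limma adjusted p of 0.446. The other 2 Pparg probes were not well above background on any array. The single probe of Ppard, a PPAR of many tissues, was between 4.46 and 4.62 on all 6 arrays and likewise not well above background.

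Of the ERR genes, Esrra fell and Esrrb did not pass the test. Esrra encodes ERRα, a receptor with no known natural hormone that acts with the PGC-1 coactivators. Its level was 11.90, 11.71 and 11.72 in hSRY-OFF and 10.84, 10.72 and 11.05 in hSRY-ON. The groups were apart by more than the range of either one. The change was -0.90 (SE 0.13), or 1.87-fold lower in hSRY-ON, with a limma adjusted p of 0.00271. It lay between -1.0 and -0.83 in the fits that left out 1 heart, and between -1.01 and -0.80 under the other settings tried, past the threshold each time.

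Esrrb, known best for its part in pluripotent stem cells and trophoblast, measured 9.76, 9.47 and 9.68 in hSRY-OFF and 8.93, 10.40 and 9.84 in hSRY-ON. The hSRY-ON hearts held both the lowest and the highest value of the 6. The change of 0.09 (SE 0.33, 95% confidence interval -0.69 to 0.86) had a limma adjusted p of 0.874, and it became -0.25 without hSRY-ON replicate 2. Esrrg, whose product ERRγ is known from the heart, was between 4.47 and 4.78 on its single probe and not well above background on any array, so nothing can be said of its change.

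Tfam fell on both of its probes, whereas Nrf1 did not pass the test. The probe ILMN_2603178 of Tfam measured 9.65, 9.86 and 9.31 in hSRY-OFF and 8.89, 8.88 and 8.87 in hSRY-ON. The 3 hSRY-ON hearts were almost level and lay below all hSRY-OFF hearts. The change was -0.73 (SE 0.16), or 1.66-fold lower, with a limma adjusted p of 0.0126, and it was past the threshold in all 6 fits that left out 1 heart. The probe ILMN_2603182 gave 9.67, 9.67 and 9.04 in hSRY-OFF and 8.57, 8.63 and 8.84 in hSRY-ON, again with no overlap. Its change of -0.78 (SE 0.19, limma adjusted p 0.0216) passed the threshold in 2 of 6 fits with a heart left out. It was lost, at -0.68, without hSRY-OFF replicate 1 and without hSRY-OFF replicate 2, at -0.73 without hSRY-ON replicate 1, and at -0.76 without hSRY-ON replicate 2.

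Nrf1, whose product acts on respiratory chain genes and on Tfam, measured 9.06, 9.07 and 9.59 in hSRY-OFF and 9.12, 9.30 and 9.28 in hSRY-ON. The hSRY-ON values all lay within the hSRY-OFF range. The change was 0.00 (SE 0.17) with a limma adjusted p of 0.990, and its 95% confidence interval of -0.40 to 0.39 leaves room for moderate changes in either direction.

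**Figure D2:**
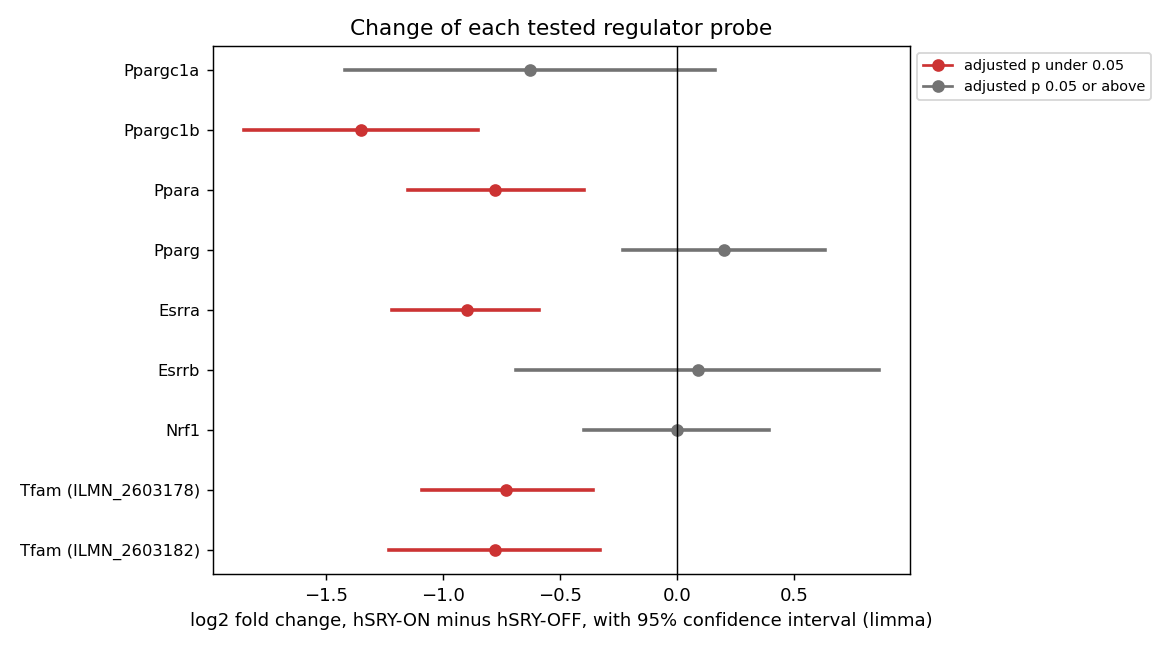
Log2 fold change, hSRY-ON minus hSRY-OFF, of the 9 tested probes of the 8 tested regulators, with its 95% confidence interval from limma (n = 3 hearts each). Red marks adjusted p-values under 0.05. The intervals of Ppargc1b, Ppara, Esrra and both Tfam probes lie wholly below 0, and those of Ppargc1a, Pparg, Esrrb and Nrf1 cross it.

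In each of the 4 groups of related regulators 1 gene fell and another did not pass the test. For the PPAR genes this rests on Ppara, which was tested only through the hSRY-OFF hearts. As the pairs were set after the values had been seen, the differences between their changes are a description, with no test. The change of Ppargc1b was below that of Ppargc1a by 0.72 log2 units, and that of Tfam below that of Nrf1 by the same amount. The change of Esrra was below that of Esrrb by 0.99, and that of Ppara below that of Pparg by 0.98. The value of 0.98 uses hSRY-ON signals of Ppara that were not above background. The fall of Ppara itself is only bounded, at 0.44 log2 units or more. Taken heart by heart, the gap between the log2 intensities of Esrra and Esrrb ran from 2.04 to 2.23 in the hSRY-OFF hearts and from 0.32 to 1.90 in the hSRY-ON hearts, without overlap. The gap between Ppargc1b and Ppargc1a ran from 0.25 to 0.32 and from -1.23 to 0.28 in the same order, with overlap. The size of a gap depends on the probes, and only its shift between groups can be read.

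The hSRY-ON hearts were uneven for some regulators and even for others. The SD among hSRY-ON hearts was 0.66 for Ppargc1a and 0.74 for Esrrb, and 1.69% and 1.04% of all tested genes had a larger one. For the brightest Tfam probe it was 0.01, and 99.7% of genes had a larger one. For the other Tfam probe, ILMN_2603182, it was 0.14. The median SD over all tested genes was 0.17 in hSRY-ON and 0.16 in hSRY-OFF. In Ppargc1a and Esrrb alike, hSRY-ON replicate 1 was the lowest of the hSRY-ON hearts and replicate 2 the highest.

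The genes whose levels followed Ppargc1b most closely over the 6 hearts were Pts, Nrarp, Rgs7, Serhl and Polh, with Pearson r from 0.9931 to 0.9971. These are the highest of all tested genes, chosen for that, and the 6 points fall into 2 groups of 3. Rgs7, a regulator of G protein signaling, changed by -1.78 (limma adjusted p 0.00107). Pts, an enzyme of tetrahydrobiopterin synthesis, changed by -0.36 and did not pass the test (limma adjusted p 0.0549).

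The partners of these regulators, namely RXR receptors, coactivators, corepressors and GABP subunits, were mostly not called. Of 18 tested partners of 25 listed, 1 rose and 2 fell, which is 16.7% against 28.8% of all tested genes, and their median change was -0.20. At an unadjusted p-value under 0.05 in limma, 2 were higher and 4 lower. Rxrg, the RXR form of striated muscle among other tissues, fell. It measured 8.10, 8.19 and 8.25 in hSRY-OFF and 4.87, 4.61 and 4.93 in hSRY-ON, where no array was above background. Rxrg was thus at least 7.22-fold lower in hSRY-ON with the background correction and offset used (limma adjusted p 2.49e-05, change -3.38). The change was -2.39 with an offset of 50 and -1.46 without background correction. Like Ppara, it was tested only through the hSRY-OFF hearts, and was detected on too few arrays to be tested when an hSRY-OFF heart was left out. The other RXR genes did not pass the test, with changes of -0.19 for Rxra (limma adjusted p 0.467) and -0.21 for Rxrb (limma adjusted p 0.349).

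Perm1, a muscle regulator induced by PGC-1 and ERR and listed on the array as 2310042D19Rik, measured 12.19, 12.19 and 12.02 in hSRY-OFF and 9.84, 10.47 and 10.95 in hSRY-ON. All hSRY-ON hearts were lower, by a change of -1.71 or 3.28-fold (SE 0.26, limma adjusted p 0.00284). Prox1, a homeobox factor known to bind together with ERRα, rose by 0.91, or 1.88-fold (SE 0.12, limma adjusted p 0.00192), from 9.66, 9.69 and 9.79 to 10.47, 10.74 and 10.65. Gabpa, the DNA-binding subunit of GABP, changed by -0.18 on its brightest probe (limma adjusted p 0.443). Nrip1, the corepressor RIP140, was not well above background on any array.

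Among kinases, calcineurin subunits, histone deacetylases and transcription factors known to act on PGC-1, 18 of 24 listed were tested. Of these 2 rose and none fell by limma (11.1% called against 28.8% of all tested genes, and 2 lower at an unadjusted p-value under 0.05), with a median change of -0.15. Prkab2, a β subunit of the energy-sensing kinase AMPK, rose from 6.10, 6.69 and 6.53 to 8.58, 7.72 and 7.87, a change of 1.61 or 3.06-fold (SE 0.25, limma adjusted p 0.00347), which was 0.86 without background correction. Prkaa2, the catalytic α subunit of striated muscle, changed by -0.64 and did not pass the test (limma adjusted p 0.0860). Ppp3ca, a calcineurin catalytic subunit, rose by 0.54 (limma adjusted p 0.0393) on its brightest probe and changed by 0.07 on another (limma adjusted p 0.843). The call on its brightest probe was kept in 1 of 6 fits with a heart left out, the one without hSRY-OFF replicate 3, with changes of 0.40 to 0.68.

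Most tested genes that PPARs and ERRs are known to activate fell in hSRY-ON. Of 24 tested PPAR target genes of 33 listed, 16 fell and 2 rose (75% called), with a median change of -1.07. At an unadjusted p-value under 0.05 in limma, 16 were lower and 3 higher. The added one was Acot1, with a change of 0.59 (limma adjusted p 0.0638). Of 20 tested ERR target genes of 21 listed, 16 fell and none rose (80%, and 17 lower with none higher at an unadjusted p-value under 0.05 in limma), with a median change of -0.90. The lists share 3 genes, and against them stand the 13.9% of all tested genes called as lower and their median of 0. Both lists were chosen with earlier results of these data known, so this contrast is a description, with no test. In the fits that left out 1 heart, 15 to 17 PPAR targets and 14 to 17 ERR targets were called.

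Among the PPAR targets, Plin5, which coats lipid droplets beside mitochondria and is listed as 2310076L09Rik, measured 10.84, 11.10 and 10.67 in hSRY-OFF and 7.57, 7.13 and 7.80 in hSRY-ON, a change of -3.37 or 10.3-fold, and -2.66 without background correction. Enzymes of fatty acid oxidation followed with -1.55 for Acadvl, -1.50 for Cpt1b, the muscle form of the carnitine transferase that admits fatty acids to mitochondria, and -1.09 for Acadm. Pdk4, the kinase that restrains pyruvate dehydrogenase, changed by -1.32, and the limma adjusted p of these 5 genes was at most 0.00550. The 2 PPAR targets that rose were Angptl4, an inhibitor of lipoprotein lipase, by 0.67, and Lpl, the lipase itself, by 0.41. The call of Lpl (limma adjusted p 0.0415) was lost with any single heart left out, with changes of 0.34 to 0.46. That of Angptl4 (limma adjusted p 0.0395) was kept only without hSRY-ON replicate 3, with changes of 0.45 to 0.81 over the 6 fits. With no normalization between arrays neither was called.

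Among the ERR targets, Ckmt2, the creatine kinase of heart and muscle mitochondria, had the largest fall of the list, at -7.09, or -6.16 without background correction. Cycs, cytochrome c, changed by -1.36 (limma adjusted p 0.000916), or -0.78 without background correction. Mdh1, a malate dehydrogenase, changed by -1.33 (limma adjusted p 0.0167). The call of Mdh1 was lost without hSRY-OFF replicate 1, hSRY-ON replicate 1 or hSRY-ON replicate 2, at -1.27, -1.26 and -1.20. Members of the ERR list that did not pass the test were Sdhd (-1.06), Cox5b (-0.26), Atp5g3 (-0.15) and Atp5b (0.02).

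**Figure D3:**
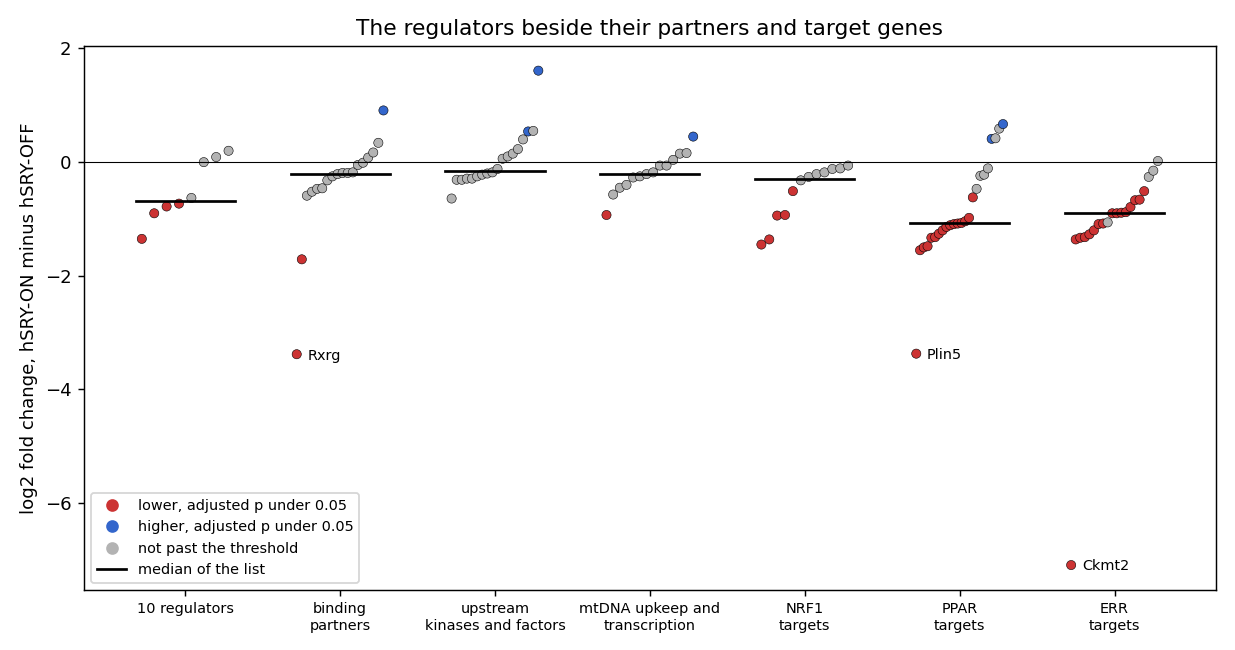
Log2 fold change, hSRY-ON minus hSRY-OFF, of each tested gene of the 10 regulators and of 6 lists of related genes, 1 point a gene, ordered by size within each list, with a bar at the median. The medians lie at -1.07 for PPAR targets and -0.90 for ERR targets, against -0.20 for binding partners and -0.15 for upstream kinases and factors. The lists were chosen with earlier results of these data known.

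Of 12 tested genes that NRF1 is known to activate, 5 fell and none rose (41.7% called against 28.8% of all tested genes, and 6 lower with none higher at an unadjusted p-value under 0.05 in limma), with a median change of -0.29. Only 2 were called without hSRY-OFF replicate 1 and 3 without hSRY-ON replicate 1. Alas1, the first enzyme of heme synthesis, changed by -1.45 (limma adjusted p 0.000857), and Cox6c, a cytochrome oxidase subunit, by -0.94 (limma adjusted p 0.0146). The call of Cox6c was lost without hSRY-OFF replicate 1 (-0.89) and without hSRY-ON replicate 1 (-0.86). Cycs and Vdac1, both also ERR targets, and Tfb1m were the others.

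Beside Tfam, 14 genes of mitochondrial DNA upkeep and transcription were tested of 17 listed, and 1 rose and 1 fell (14.3% called against 28.8% of all tested genes), with a median change of -0.20. At an unadjusted p-value under 0.05 in limma, 1 was higher and 3 were lower. Tfb1m, a ribosomal RNA methyltransferase of mitochondria, changed by -0.93 (limma adjusted p 0.0390) and was called in 1 of 6 fits with a heart left out, that without hSRY-OFF replicate 3, with changes of -1.24 to -0.65. Without background correction it changed by -0.29 and was not called. Tfb2m, which starts mitochondrial transcription together with TFAM, measured 9.95, 9.96 and 10.12 in hSRY-OFF and 10.02, 9.99 and 9.83 in hSRY-ON. Its change was -0.06 (SE 0.12, limma adjusted p 0.730), and 0.05 with median scaling. Mterf1a, a termination factor listed as Mterf, rose by 0.45 (limma adjusted p 0.0414) on its brightest probe, while another probe changed by 0.13 and did not pass the test (limma adjusted p 0.527). Its call was kept without hSRY-OFF replicate 3 and without hSRY-ON replicate 3 but in none of the other 4 fits, with changes of 0.38 to 0.54. Leaving out 1 heart gave between 0 called genes on this list, as without hSRY-OFF replicate 1, hSRY-OFF replicate 2, hSRY-ON replicate 1 or hSRY-ON replicate 2, and 5, without hSRY-OFF replicate 3.

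In RNA of whole hearts, fewer cells of a type and less RNA per cell cannot be told apart. Of 8 tested markers of the heart muscle cell, 4 fell and none rose, with a summed linear intensity of 135300 to 153100 in the hSRY-OFF hearts against 128100 to 139500 in the hSRY-ON hearts. Myl2 and Nppa, at the bright end of the array, made up 54.8% to 67.3% of this sum, and the dimmer probe of Myh6 changed by -1.97 (limma adjusted p 0.00154) against -0.51 for the brighter one. Of 6 macrophage markers 4 rose, with sums of 2257 to 3206 and 5379 to 5700 in the same order. Csf1r is not among these 4 by its brightest probe, but another of its probes changed by 1.30 (limma adjusted p 0.000886). Of 5 endothelial markers tested 1 rose and 2 fell, with sums of 9484 to 10210 and 9319 to 10700. Of 5 fibroblast markers none was called by limma on its brightest probe (1 lower at an unadjusted p-value under 0.05), with sums of 20220 to 23450 and 18570 to 21270. A dimmer probe of the fibroblast marker Dcn changed by -0.90 (limma adjusted p 0.0108). Of 5 erythroid markers 1 fell, with sums of 49070 to 61320 and 50850 to 55520. Hba-a1, at the bright end of the array with 15.39 to 15.49 in all hearts, made up most of these sums. They therefore say little of the other erythroid markers. Of the hepatocyte markers tested, Ahsg rose, and Ttr was above background on the hSRY-ON arrays alone, at least 3.87-fold higher there and tested for that reason, with list sums of 311.9 to 364.3 and 1293 to 3079, while Alb and Serpina1a were above background on no array. The part of these markers in the changes of the regulators was not tested.

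Fat cell markers varied among hearts, as did Ppargc1a, Esrrb and Pparg. Of 14 such markers 7 were above background on some array, and Plin1, Lep, Retn, Cidec, Elovl3, Dio2 and Prdm16 on none. The hSRY-OFF sums ran from 2180 to 2952 and the hSRY-ON sums from 1448 to 4004, and 3 of 6 tested markers rose. Cidea, at 10.80 to 11.00 in hSRY-OFF, made up most of the hSRY-OFF sums, which therefore say little of the other markers. Ucp1, the uncoupling protein of brown fat, measured 4.64, 5.03 and 8.88 in hSRY-OFF and 10.81, 8.80 and 9.94 in hSRY-ON, a change of 3.67 (SE 1.07, limma adjusted p 0.0395) that was 2.94 with an offset of 50 and 2.14 without background correction. The groups overlapped at hSRY-OFF replicate 3, and the call was kept in 1 of 6 fits with a heart left out, the one without that heart, with changes of 2.89 to 5.07.

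Adipoq, the fat cell hormone adiponectin, measured 4.82, 5.49 and 5.84 in hSRY-OFF and 7.49, 6.07 and 7.04 in hSRY-ON, a change of 1.48 (SE 0.39, limma adjusted p 0.0265) that was 0.55 without background correction. Its call was kept in 2 of 6 fits with a heart left out, those without hSRY-OFF replicate 3 or hSRY-ON replicate 2, with changes of 1.18 to 1.88. Fabp4, a lipid carrier of fat cells and endothelium, was above background on 2 hSRY-OFF arrays and on no hSRY-ON array, and was not tested. Cidea, a lipid droplet protein abundant in brown fat, measured 10.80, 10.95 and 11.00 in hSRY-OFF and 10.54, 8.94 and 10.11 in hSRY-ON and did not pass the test (change -1.05, limma adjusted p 0.0691). Cidea was added after its values had been seen. In hSRY-ON, replicate 1 was the highest and replicate 2 the lowest for Ucp1, Adipoq and Cidea, the reverse of Ppargc1a and Esrrb. The other tested fat cell markers did not follow this order. Cfd (7.58, 6.61 and 5.68) and Cebpa (5.96, 5.72 and 5.46) ran from replicate 1, the highest, to replicate 3, the lowest, as Pparg did. Lipe, at 6.04, 6.23 and 5.72 on its brightest probe, was highest in replicate 2. With 3 hearts such an order has no test, and the part of fat tissue in these values was not tested.

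**Figure D4:**
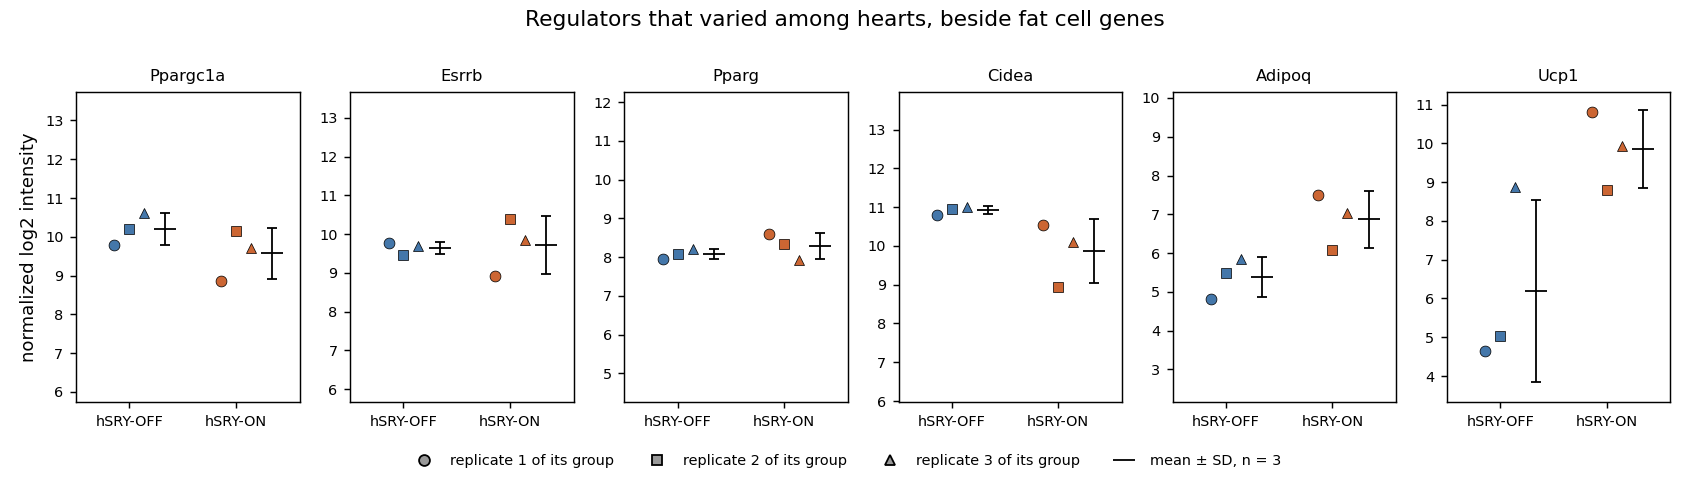
Normalized log2 intensity of Ppargc1a, Esrrb and Pparg beside the fat cell genes Cidea, Adipoq and Ucp1 in the 6 hearts, with the mean ± SD of each group (n = 3), all panels spanning the same number of log2 units. Among the hSRY-ON hearts, replicate 1 (circle) is lowest for Ppargc1a and Esrrb and highest for Cidea, Adipoq and Ucp1. The other tested fat cell markers, Cfd, Cebpa and Lipe, are not shown, and Lipe was highest in replicate 2.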

How the data were processed

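RNA of 3 hSRY-ON and 3 hSRY-OFF hearts was labelled as biotinylated cRNA and hybridized to Illumina MouseRef-8 v2.0 BeadChip arrays. For every probe and heart the authors deposited an average bead intensity, neither normalized nor background-subtracted, together with a detection p-value set against that array's negative controls. The submitters' processing notes name limma without a version, and the methods name TCC without settings. Groups and replicate numbers came from the sample labels.

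With R 4.3.3 and limma 3.58.1, intensities were background corrected by normexp through the detection p-values, with an offset of 16, quantile normalized and put on the log2 scale. Probes detected at p under 0.05 on at least 3 of 6 arrays were fitted with lmFit and eBayes (two-sided), and p-values were adjusted by Benjamini-Hochberg over all 12970 tested probes. A larger offset makes changes of dim probes smaller. The number of arrays limits the precision. A probe above background in 1 group only has a lower bound, the mean of that group over the mean, in the other, of the dimmest detected signal of each array or of the probe's own, whichever was higher, and the bound holds for these background-corrected values only. No array repeated another. The steps were tested on simulated data.

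Of the lists, 12 genes were found under another symbol through RefSeq synonyms. Promoters are RefSeq's in GRCm38.p6. The text names all 10 regulators, the 3 called genes with the largest rise and the 3 with the largest fall in each list of related genes, Rxra, Rxrb, Rxrg, Gabpa, Nrip1, Pdk4, Cpt1b, Acadm, Cycs, Ckmt2, Tfb2m, Adipoq, Fabp4 and Ucp1, and the 5 genes most correlated with the regulator that fell most. Other genes were named after their values had been seen. The regulators and the lists were chosen with earlier results of these data known. Alternatives changed the background correction, the normalization, the probe filter, the variance model and the replicate block, and left out each heart in turn. Plots used matplotlib 3.10.9 under Python 3.11.15.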

Additional observations from a re-analysis of the deposited data

How the results depend on the processing

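Of the calls on the regulators, those of Ppargc1b, Esrra and the Tfam probe ILMN_2603178 were kept under every alternative run, and Ppargc1a, Pparg, Esrrb and Nrf1 passed the threshold under none. Ppara lost its call without background correction, at -0.23. The Tfam probe ILMN_2603182 lost its call with median scaling (-0.68) and with the replicate block (-0.78), and lay between -0.99 and -0.68 with a heart left out. Esrrb reversed to -0.01 without normalization between arrays and lay between -0.25 and 0.48 with a heart left out, and Tfb2m reversed to 0.05 with median scaling. With 3567 probes called, the count was 1897 without normalization and 2206 to 3669 with a heart left out, lowest without hSRY-OFF replicate 1 and then 2255 without hSRY-ON replicate 1. Of upstream genes 1 was called without normalization and without the probe filter, and 1 to 2 with a heart left out. Of genes of mitochondrial DNA upkeep 1 was called without normalization, with detection on all 6 arrays, with a detection p under 0.01 and with the replicate block, 0 without the probe filter, and 0 to 5 with a heart left out. Of NRF1 targets 2 to 5 were called with a heart left out. The median change of all probes was -0.12 without normalization and 0.09 with median scaling, and every called regulator stayed below it. Deviations of hearts with the same replicate number correlated at -0.02, 0.04 and -0.07, so no effect shared by them was seen. Such values cannot exclude that the numbers mark pairs. With the replicate block 2842 probes were called. Ppard, Esrrg and 2 Pparg probes lay within the background, where no change can be seen, and the level of Ppara in hSRY-ON is a limit.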
